A study of Mus musculus with 8 samples.

Results

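Nuclear receptors are transcription factors that bind DNA through a zinc finger domain, many of them under the control of a small lipid-soluble ligand such as a steroid, retinoid, thyroid hormone, bile acid or oxysterol. Many act as dimers with a retinoid X receptor, recruit coactivators when ligand is bound, and recruit corepressors when it is not. In hepatocytes they set bile acid, cholesterol, fatty acid and drug metabolism, together with the daily rhythm of these pathways. The list held 44 mouse members of this superfamily, and members were taken as every transcript cluster of the array whose platform annotation gives one of these symbols, alone or with others. By this rule 42 of the 44 receptors had a cluster, among 23981 gene symbols in the annotation, and they had 45 clusters in all, 43 with 1 symbol and 2 with several. Nr1h2, the liver X receptor beta, and Nr2e3, a photoreceptor factor, had no cluster under their symbols and are not analysed here.

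Arrays were run on RNA of AML12 cells made to express the zinc finger protein Zfp125 stably (4 arrays), and of AML12 cells given an empty vector (4 arrays). AML12 is an established hepatocyte line from the liver of a mouse transgenic for human transforming growth factor alpha. G418 selection and control medium were the same for both groups. Whether the 4 samples of each group came from different cultures or clones is not stated in the labels; p-values therefore reflect the spread among these samples alone, which could be technical. In a population of cells, fewer cells with a transcript and less transcript per cell cannot be told apart.

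Levels are the deposited log2 values. A change is the log2 level in Zfp125 cells minus that in empty vector cells, given ± the standard error from limma's moderated test, and errors of means are SDs with n = 4 arrays. Array medians over all 41345 clusters were 4.33 to 4.37 in Zfp125 cells and 4.32 to 4.36 in empty vector cells, and correlations between arrays were 0.977 to 0.984. Zfp125 had no cluster in the annotation, so the labels could not be checked against the expressed gene. The hepatocyte label was checked on 9 markers, of which 7 were above the median on every array, among them albumin (Alb), transthyretin (Ttr) and Apoa1. Tdo2 was below it on every array, and Cyp2e1 was above it on 2 of 8 arrays and averaged below it in both groups. The summed log2 levels of these 9 clusters ranged from 67.9 to 70.4 in Zfp125 cells and from 70.4 to 73.0 in empty vector cells. Albumin averaged 12.48 ± 0.06 in Zfp125 cells and 12.96 ± 0.09 in empty vector cells. Of the 9 markers 0 passed over all clusters, against 0.148% of all clusters. Among genes with a single symbol 3 fell (Alb, Apoa1 and Serpina1c), against 0.636% of those genes, with Apoa1 at an adjusted p of 0.0492. The part of this shift of hepatocyte markers in the results below was not tested. Of marker lists for other liver cells, 3 of 5 cholangiocyte, 4 of 8 stellate cell or fibroblast, 4 of 7 macrophage or leukocyte and 3 of 5 endothelial clusters lay above the array median in empty vector cells. Of the macrophage or leukocyte markers, Cd14, Cd68, Csf1r and Clec4f were above it on every array, while Ptprc and Adgre1 were below it on every array. The cholangiocyte-associated genes Krt7, Krt19 and Sox9 were above it on every array, while Epcam and Cftr were below it on every array.

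In empty vector cells 34 of the 45 receptor clusters (75.6%) had a mean above the array median, against 49.8% of all clusters and 58.2% of clusters with a gene symbol. These 34 clusters covered 32 receptors. Only 16 of the 45 clusters averaged above the 75th percentile of the empty vector arrays. The 10 receptors with no cluster above the median were Pparg, Rorb, Nr1i3, Hnf4g, Rxrg, Esr1, Pgr, Nr4a3, Nr6a1 and Nr0b1. In Zfp125 cells the count was also 34. On single arrays, 32 clusters were above the median on all 8, 9 were below it on all 8, and 4 were mixed, namely Rarb (above on 5 of 8), Rorb (3), Nr2f1 (7) and Esr1 (2). Probe brightness also depends on probe sequence and no detection call was available, so a cluster is set against the array median and not against another cluster. A level above the median does not by itself show that a receptor is expressed.

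**Figure D1:**
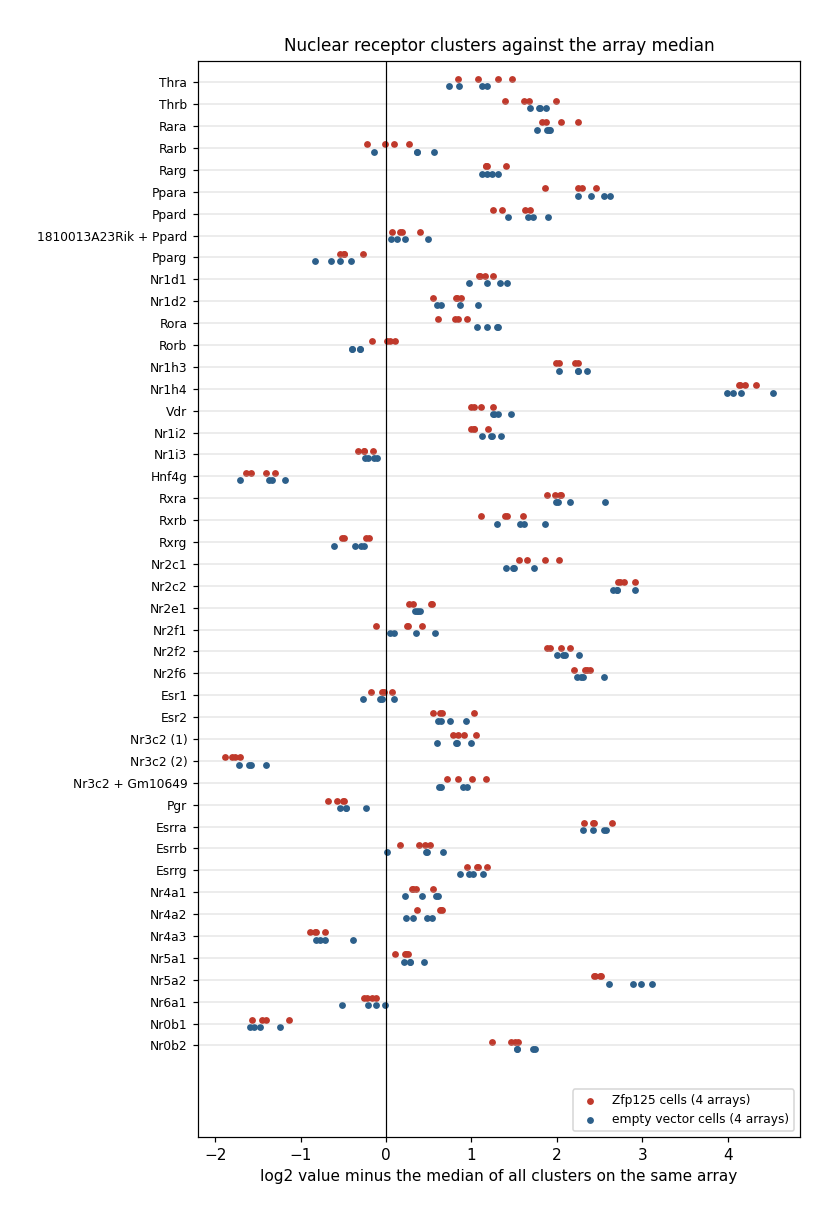
Each point is 1 array of Zfp125 cells (upper row of each pair) or empty vector cells (lower row), plotted as the log2 value minus the median of all clusters on that array, for the 45 receptor clusters. In empty vector cells 34 clusters average above the line at 0; Nr1h4 lies more than 3 log2 units above it on every array, and the 2 groups overlap for most receptors.

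Zfp125 cells and empty vector cells did not differ in any receptor cluster at an adjusted p under 0.05 in the fit of all clusters: 0 of 45 rose and 0 fell. Over the whole array 61 of 41345 clusters passed (0.148%), 10 of them higher (0.0242%) and 51 lower (0.123%), so a count of 0 among 45 is near the background. At an unadjusted p under 0.05 there were 5 receptor clusters (11.1%), 1 higher and 4 lower, against 9.43% of all clusters (4.91% higher and 4.52% lower) and 9.07% of clusters with a symbol. When only genes with a single symbol were tested, each by its brightest cluster, 240 of 22180 genes passed (1.08%), and of the 42 receptors again 0 did, with a smallest adjusted p of 0.0791. With all clusters that have a symbol as the tested set, 1.03% passed and 0 of the 45 receptor clusters did. Without variance moderation 0 receptor clusters passed and 5 had an unadjusted p under 0.05, against 4 and 3918 of all 41345 clusters. The number of clusters called over the array varied on leaving out 1 array, which also leaves fewer arrays to test. Without Zfp125 replicates 1, 2, 3 and 4 it was 16, 17, 20 and 61. Without empty vector replicates 1, 2, 3 and 4 it was 39, 41, 29 and 26. The receptor count stayed at 0 in each of the 8 omissions.

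The receptors' changes were small in size. The median change was -0.023 over the 45 receptor clusters, against -0.0020 over clusters with a symbol, and the median absolute change was 0.095 against 0.092. In 27 of the 45 clusters (60%) the change was below 0, against 50.3% of all clusters. The 95% intervals were not adjusted for the number of clusters and had a median half-width of 0.24. All 45 lay within a 2-fold change in either direction (between -1 and 1), and 36 lay between -0.5 and 0.5. The median SD over the receptor clusters was 0.13 in Zfp125 cells and 0.15 in empty vector cells.

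**Figure D2:**
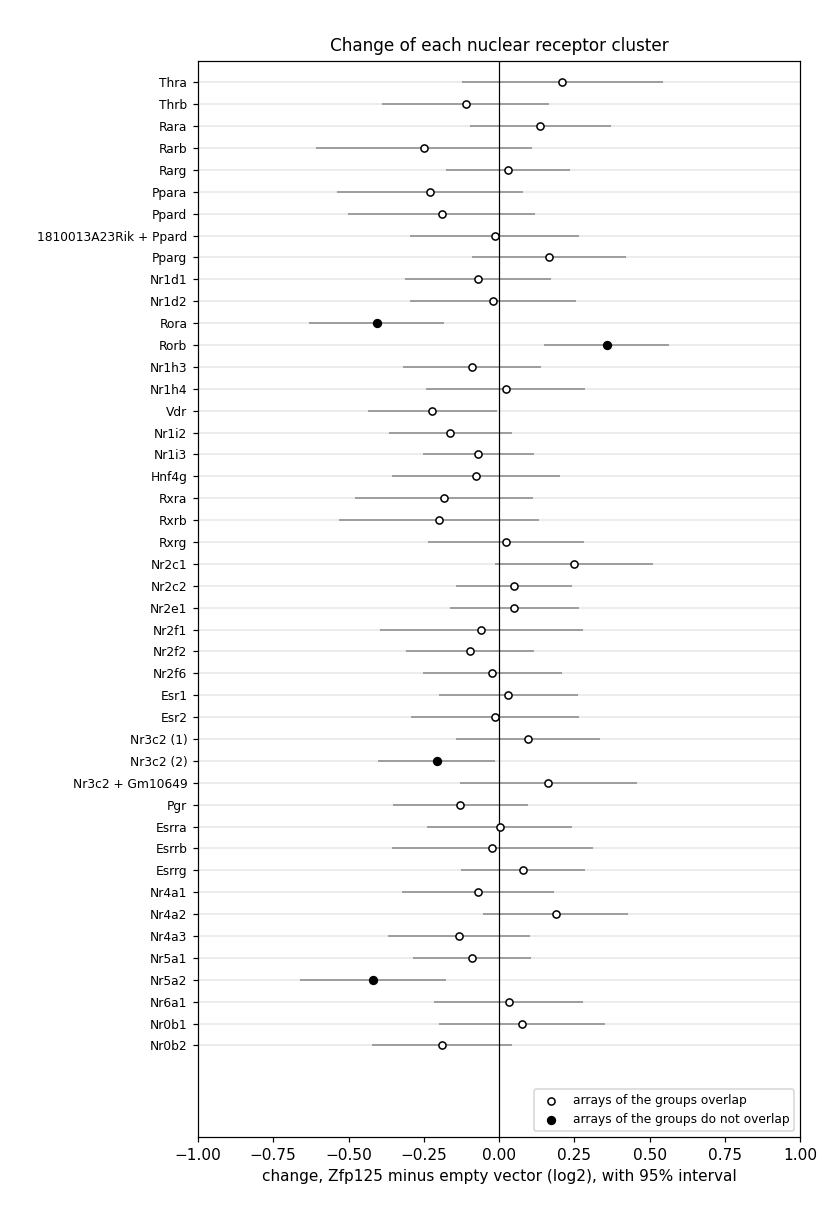
Points are the change of each receptor cluster (log2, Zfp125 minus empty vector), and bars are 95% intervals from limma. All intervals lie between -1 and 1, and filled points mark the 4 clusters whose arrays do not overlap between the groups: Rora, Rorb, Nr5a2 and the dim cluster of Nr3c2.

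The groups did not overlap for 4 receptor clusters (8.89%), 3 lower and 1 higher in Zfp125 cells, against 6.23% of all clusters (3.03% lower and 3.2% higher) and 7.14% of clusters with a symbol. The 4 clusters belong to Rora, Rorb, Nr5a2 and Nr3c2. The bases upstream of the first 3 are shown because these receptors had the smallest p-values of the family; the windows are the 250 bases before the outermost listed start in RefSeq's GRCm38.p6 table, read 5′ to 3′ on the gene's strand. Capitals mark AGGTCA, the core hexamer recognised by many nuclear receptors, searched on both strands (TGACCT on the other).
Rora, chr9:68653536-68653785, plus strand: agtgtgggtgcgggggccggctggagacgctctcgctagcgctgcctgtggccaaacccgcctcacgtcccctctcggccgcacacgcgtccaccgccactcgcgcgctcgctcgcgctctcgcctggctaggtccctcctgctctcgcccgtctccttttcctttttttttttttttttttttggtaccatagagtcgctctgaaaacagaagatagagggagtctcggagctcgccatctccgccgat
Rorb, chr19:19111197-19111446, minus strand: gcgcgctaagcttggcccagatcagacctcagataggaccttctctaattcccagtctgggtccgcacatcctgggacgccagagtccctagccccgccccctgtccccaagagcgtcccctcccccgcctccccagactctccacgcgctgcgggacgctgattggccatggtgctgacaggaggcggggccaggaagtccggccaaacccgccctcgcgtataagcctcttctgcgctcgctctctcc
Nr5a2, chr1:136960449-136960698, minus strand: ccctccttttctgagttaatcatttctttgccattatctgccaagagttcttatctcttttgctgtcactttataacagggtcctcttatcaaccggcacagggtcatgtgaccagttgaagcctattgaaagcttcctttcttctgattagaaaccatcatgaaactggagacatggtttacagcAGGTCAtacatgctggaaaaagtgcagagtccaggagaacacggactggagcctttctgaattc
The hexamer stood in the Nr5a2 window, 64 bases before the listed start, and not in the Rora and Rorb windows shown. A later Nr5a2 start and a later Rorb start in the table had no hexamer in their windows. Of 61 windows listed for 41 of the 44 receptors, 11 held it (18%), in 10 receptors, against 14% of 32851 windows of the same length in the table. These matches are a description of letters and not binding sites.

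RORα, encoded by Rora, is an orphan receptor that activates clock and lipid genes through the same elements at which REV-ERB receptors repress. Rora had values of 4.96, 5.14, 5.31 and 5.19 in Zfp125 cells, against 5.61, 5.54, 5.42 and 5.65 in empty vector cells. Every Zfp125 array was below every empty vector array. The change was -0.41 ± 0.10, a 1.33-fold lower level with a 95% interval of -0.63 to -0.18, and it did not pass over all clusters (adjusted p = 0.203) or among single-symbol genes (adjusted p = 0.0791).

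Rorb, a paralog best known from retina and brain, was dim in this line. Its values were 4.46, 4.16, 4.38 and 4.40 in Zfp125 cells, against 3.92, 4.05, 3.97 and 4.03 in empty vector cells. All empty vector arrays were below their array medians, while 3 of the 4 Zfp125 arrays were above theirs, and the groups did not overlap. Its change of 0.36 ± 0.09 (interval 0.15 to 0.56) did not pass (adjusted p = 0.227, and 0.106 among single-symbol genes). The 2 ROR clusters therefore had changes of opposite sign, and the difference between them was not tested.

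The REV-ERB repressors of the clock had changes near 0. Nr1d1 had a change of -0.07 ± 0.11 (interval -0.31 to 0.17). Nr1d2 averaged 5.12 ± 0.15 in Zfp125 cells and 5.14 ± 0.20 in empty vector cells, a change of -0.020 ± 0.12. In the RefSeq table Nr1d1 overlaps the thyroid hormone receptor gene Thra and lies 5 coding genes from Rara, while Nr1d2 lies 1 coding gene from Thrb, which is next to Rarb. The overlap is one of genome positions, and whether probes of Thra and Nr1d1 lie there is not known from the sources used here.

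Nr5a2 encodes LRH-1, a receptor of liver and pancreas that drives bile acid synthesis genes and is held in check by SHP. Its values were 6.80, 6.85, 6.88 and 6.79 in Zfp125 cells, against 7.43, 6.97, 7.26 and 7.33 in empty vector cells. Zfp125 arrays lay close together (SD 0.04) and all were below the lowest empty vector array, which was replicate 2. The change was -0.42 ± 0.11, a 1.34-fold lower level (interval -0.66 to -0.17). It did not pass over all clusters (adjusted p = 0.229) or among single-symbol genes (adjusted p = 0.0889). Its paralog Nr5a1, the steroidogenic factor of adrenal and gonad, averaged 4.56 ± 0.06 in Zfp125 cells and 4.65 ± 0.11 in empty vector cells (change -0.09 ± 0.09). Nr6a1, the germ cell nuclear factor and the neighbour of Nr5a1 in the RefSeq table, averaged 4.16 ± 0.07 in Zfp125 cells and 4.13 ± 0.20 in empty vector cells (change 0.03 ± 0.11).

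SHP, encoded by Nr0b2, lacks a DNA-binding domain and represses LRH-1 and other receptors when bile acids activate FXR. Nr0b2 had values of 5.89, 5.84, 5.83 and 5.59 in Zfp125 cells, against 5.85, 6.07, 6.11 and 5.88 in empty vector cells. Its groups overlapped, and the change of -0.19 ± 0.10 did not pass (interval -0.42 to 0.04; adjusted p = 0.626). The bile acid receptor FXR, encoded by Nr1h4, lay far above the array median, with 8.49, 8.65, 8.57 and 8.49 in Zfp125 cells, against 8.84, 8.34, 8.52 and 8.41 in empty vector cells. All Zfp125 arrays fell inside the empty vector range, and the change was 0.02 ± 0.12 (interval -0.24 to 0.29; adjusted p = 0.977). Nr0b1, the DAX-1 repressor of steroidogenic tissue, was below the array median on every array and had a change of 0.08 ± 0.12.

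Among the lipid sensors, Nr1h3 encodes the oxysterol receptor LXRα. It averaged 6.47 ± 0.13 in Zfp125 cells and 6.56 ± 0.13 in empty vector cells (change -0.09 ± 0.10, interval -0.32 to 0.14). PPARα, the fatty acid sensor that induces oxidation genes in fasting liver, is encoded by Ppara, with 6.81, 6.57, 6.23 and 6.65 in Zfp125 cells, against 6.71, 6.97, 6.60 and 6.89 in empty vector cells. The groups overlapped, and the change of -0.23 ± 0.14 did not pass (interval -0.54 to 0.08; adjusted p = 0.661). Ppard, a broadly expressed paralog, had a change of -0.19 ± 0.14 in the cluster with its symbol alone and of -0.015 ± 0.12 in the cluster it shares with 1810013A23Rik. Pparg, the adipocyte paralog, was below the median on every array and had a change of 0.17 ± 0.11.

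The xenobiotic sensors were of unequal standing against the array median. Nr1i2, which encodes the pregnane X receptor PXR, had values of 5.38, 5.36, 5.36 and 5.55 in Zfp125 cells, against 5.44, 5.58, 5.60 and 5.69 in empty vector cells. Only Zfp125 replicate 4 reached into the empty vector range, and the change was -0.16 ± 0.09 (adjusted p = 0.634). CAR, encoded by Nr1i3 and abundant in adult liver, was below the median on all 8 arrays and averaged 4.10 ± 0.07 in Zfp125 cells and 4.17 ± 0.07 in empty vector cells (change -0.07 ± 0.08). The vitamin D receptor gene Vdr had values of 5.60, 5.35, 5.48 and 5.35 in Zfp125 cells, against 5.63, 5.82, 5.62 and 5.59 in empty vector cells. The groups overlapped through Zfp125 replicate 1, and the change of -0.22 ± 0.10 (interval -0.44 to -0.01) did not pass (adjusted p = 0.513).

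Retinoid X receptors are the shared dimer partners. Rxra, the main form in liver, had values of 6.38, 6.38, 6.25 and 6.34 in Zfp125 cells, against 6.30, 6.51, 6.37 and 6.90 in empty vector cells, where replicate 4 was the highest. The groups overlapped, and its change was -0.18 ± 0.13 (interval -0.48 to 0.11). Rxrb had a change of -0.20 ± 0.15 and Rxrg, below the median on every array, of 0.02 ± 0.12. Of the retinoic acid receptors, Rara had a change of 0.14 ± 0.10, Rarg of 0.03 ± 0.09 and Rarb of -0.25 ± 0.16. Rarb, itself a retinoic acid target, ranged from 4.13 to 4.60 in Zfp125 cells and from 4.20 to 4.88 in empty vector cells. Of the thyroid hormone receptors, Thra had a change of 0.21 ± 0.15 and Thrb, the main hepatic form, of -0.11 ± 0.12. The smallest adjusted p among these 8 receptors was 0.690, for Rarb.

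The orphan receptors of the NR2 class were mostly above the array median. Nr2c1, which encodes the testicular receptor TR2, had values of 5.91, 6.35, 6.02 and 6.21 in Zfp125 cells, against 6.05, 5.76, 5.85 and 5.84 in empty vector cells. Empty vector replicate 1 lay inside the Zfp125 range, and the change of 0.25 ± 0.12 (interval -0.01 to 0.51) did not pass (adjusted p = 0.557). Nr2c2, its paralog TR4, had a change of 0.05 ± 0.09. The COUP-TF genes Nr2f1, Nr2f2 and Nr2f6 had changes of -0.06 ± 0.15, -0.10 ± 0.09 and -0.022 ± 0.10. Hnf4g, a gut and kidney relative of the hepatocyte factor HNF4α, was below the median on every array (change -0.08 ± 0.12), and Nr2e1, a factor of neural stem cells, had a change of 0.05 ± 0.10.

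Receptors for steroids and their relatives gave 9 clusters. The mineralocorticoid receptor gene Nr3c2 had 3, which disagreed in sign. Its dim cluster had values of 2.55, 2.61, 2.49 and 2.59 in Zfp125 cells, against 2.91, 2.78, 2.64 and 2.74 in empty vector cells, all below the array median and without overlap. That change was -0.21 ± 0.09 (interval -0.40 to -0.01; adjusted p = 0.495). The brighter cluster of Nr3c2 had a change of 0.09 ± 0.11, and the cluster it shares with Gm10649 one of 0.16 ± 0.13, so no direction can be given for this gene. Estrogen receptor genes Esr1 and Esr2 had changes of 0.03 ± 0.10 and -0.014 ± 0.12, and the progesterone receptor gene Pgr, below the median on every array, of -0.13 ± 0.10.

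The estrogen-related receptors act on genes of mitochondrial energy metabolism without a known steroid ligand. Esrra averaged 6.81 ± 0.15 in Zfp125 cells and 6.81 ± 0.14 in empty vector cells (change 0.0021 ± 0.11, interval -0.24 to 0.24). Esrrb and Esrrg had changes of -0.023 ± 0.15 and 0.08 ± 0.09. The NR4A genes are induced within minutes to hours by hormones and stress. Nr4a1 had a change of -0.07 ± 0.11, Nr4a2 of 0.19 ± 0.11 (interval -0.05 to 0.43; adjusted p = 0.643) and Nr4a3, below the median on every array, of -0.13 ± 0.10.

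**Figure D3:**
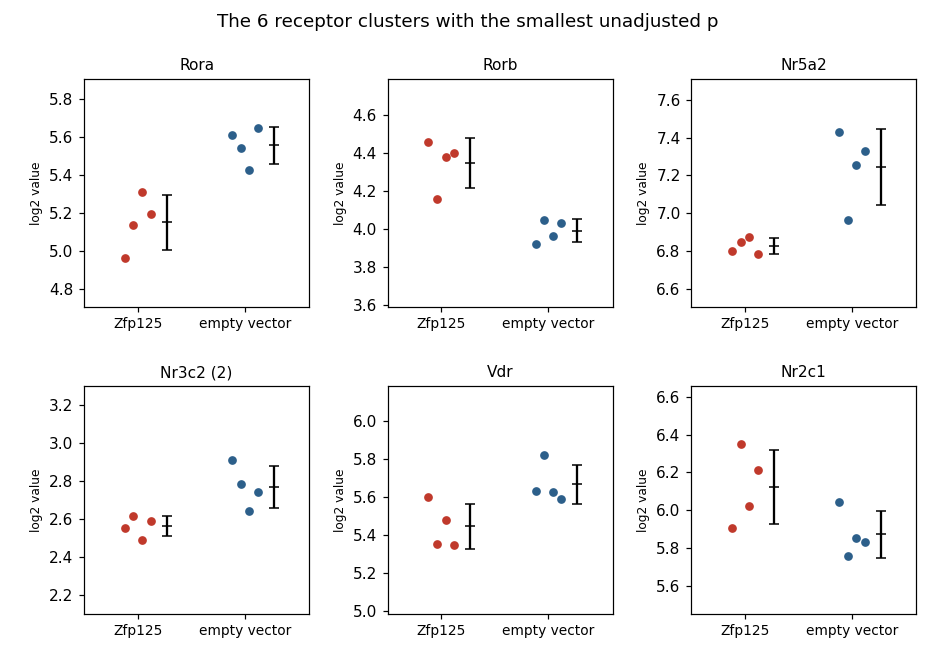
Log2 values of the 6 receptor clusters with the smallest unadjusted p, with Zfp125 cells left of empty vector cells, 1 point per array and the mean ± SD beside the points; every panel spans the same range, and Nr3c2 (2) is the dim cluster. The groups are apart for Rora, Rorb, Nr5a2 and the dim cluster of Nr3c2, and overlap for Vdr and Nr2c1.

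**Figure D4:**
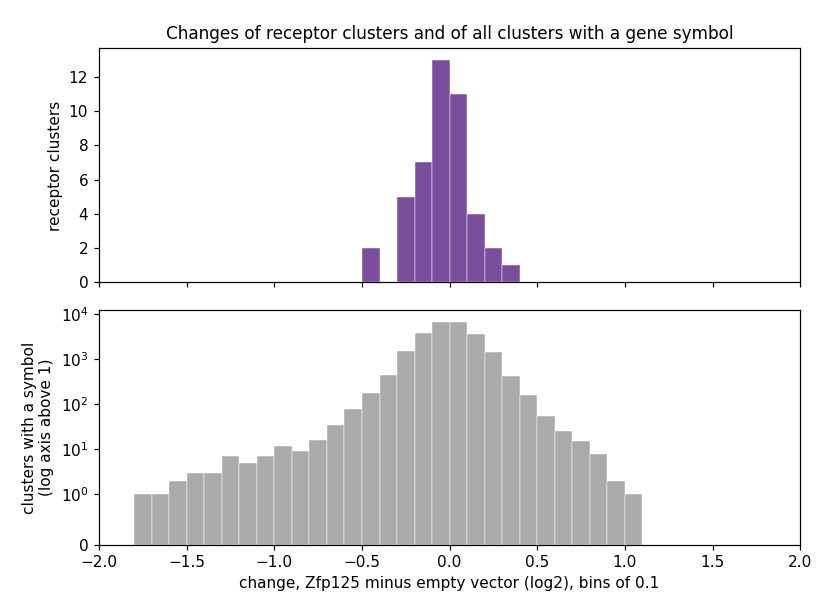
Counts of clusters by log2 change, Zfp125 minus empty vector, in bins of 0.1, for the 45 receptor clusters (upper panel) and for 25335 clusters with a gene symbol (lower panel, log axis above 1). Receptor changes lie between -0.42 and 0.36, and the clusters with a symbol reach 1.74 in absolute change.

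Coregulators and target genes of the receptors were taken from lists of 112 genes, of which 100 had a cluster with a single symbol, 109 clusters in all. In the fit of all clusters 0 of 109 rose and 0 fell, against 0.148% of all clusters, and 15 (13.8%) had an unadjusted p under 0.05, against 9.43%. The direction was even, with 54 higher and 55 lower, where 50.3% of all clusters were lower. The groups did not overlap for 10 of the 109 clusters (9.17%), against 6.23% of all clusters and 7.14% of clusters with a symbol. These 10 were Lpin1, Lcor, Nrip1, Scd1, Fabp1, Abcc2, Dhrs3, Stra6, Bcl3 and Arntl. Cycs clusters with the same values on every array were counted separately. Among single-symbol genes 1 rose and 3 fell, namely Dhrs3, Scd1, Fabp1 and Abcc2, against a background of 0.446% higher and 0.636% lower. The lists were chosen with earlier results of these data known, so their shares are not independent of these data and are a description only. Receptors that are themselves targets, Rarb and Nr0b2, are counted in these lists too.

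Of 17 coactivator clusters 13 were higher and 4 lower, with a median change of 0.06, and 0 passed in either fit. The smallest p-values were those of Lpin1, a phosphatidate phosphatase that also coactivates PPARα, with -0.19 ± 0.08, and Ep300, a histone acetyltransferase, with 0.17 ± 0.09. In 7 corepressor clusters the median was 0.07 and 0 passed. Lcor, a ligand-dependent corepressor, had values of 8.14, 8.24, 8.12 and 8.09 in Zfp125 cells, against 8.01, 7.51, 7.71 and 7.80 in empty vector cells. The groups did not overlap, but the change of 0.39 ± 0.11 did not pass (adjusted p = 0.288, and 0.134 among single-symbol genes). Nrip1, which encodes the corepressor RIP140, had a change of 0.30 ± 0.10 (adjusted p = 0.377).

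Dhrs3, a retinaldehyde reductase induced by retinoic acid, had values of 9.18, 9.10, 9.12 and 8.81 in Zfp125 cells, against 8.46, 8.34, 8.39 and 8.46 in empty vector cells. Every Zfp125 array was above every empty vector array. The change of 0.64 ± 0.10, a 1.56-fold higher level, passed among single-symbol genes (adjusted p = 0.00639) and missed over all clusters (adjusted p = 0.0575). Of the other 7 retinoic acid target clusters 3 were higher and 4 lower, and Stra6, the retinol transporter, had a change of 0.43 ± 0.14 (adjusted p = 0.344).

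The stearoyl-CoA desaturase Scd1, an LXR and SREBP target, averaged 7.51 ± 0.31 in Zfp125 cells and 8.48 ± 0.20 in empty vector cells. Its change of -0.97 ± 0.16 passed among single-symbol genes (adjusted p = 0.00537) and not over all clusters (adjusted p = 0.0746). Of all 11 LXR target clusters, 6 were higher and 5 lower, with a median of 0.05. Lpcat3, a phospholipid acyltransferase, had a change of 0.24 ± 0.10. Of the 14 PPARα target clusters, 5 were higher and 9 lower with a median of -0.07. Fabp1, the liver fatty acid binding protein, had a change of -0.98 ± 0.19 (adjusted p = 0.0119 among single-symbol genes, 0.107 over all clusters), and the fatty acid carrier Cd36 of -0.60 ± 0.17 (0.0813 and 0.261).

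Of 13 PXR and CAR target clusters 3 were higher and 10 lower, with a median of -0.09, where 50.3% of all clusters were lower. In empty vector cells 7 of the 13 averaged above the array median, and 4 were below it on every array of both groups. Abcc2, the canalicular export pump, had a change of -0.62 ± 0.12, which passed among single-symbol genes (adjusted p = 0.0178) and not over all clusters (adjusted p = 0.109), and Cyp3a13 had one of -0.20 ± 0.11. The FXR targets had 4 clusters higher and 4 lower, with 0 passing in either fit. The bile salt pump Abcb11, below the array median in both groups, had a change of 0.22 ± 0.12. All 4 clusters of SHP and LRH-1 targets were lower with a median of -0.17 and 0 passed, where 50.3% of all clusters were lower. These 4 include the receptor gene Nr0b2, which is also among the FXR targets. They also include Cyp7a1, below the array median on every array, with a change of -0.023 ± 0.17. Scarb1, the HDL receptor, had a change of -0.20 ± 0.11 (adjusted p = 0.620).

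Thyroid hormone targets had 4 of 6 clusters higher, a median of 0.11, and 0 passing in either fit. Malic enzyme, Me1, had a change of 0.42 ± 0.12 (adjusted p = 0.288) and Bcl3 of -0.28 ± 0.09 (adjusted p = 0.342). Of 11 clusters of clock genes under REV-ERB and ROR control, 5 were higher and 6 lower and 0 passed. Arntl, the clock activator BMAL1, averaged 5.97 ± 0.11 in Zfp125 cells and 6.24 ± 0.06 in empty vector cells, a change of -0.26 ± 0.09 without overlap of the groups (adjusted p = 0.363, and 0.255 among single-symbol genes). Tef, a PAR bZIP factor, had changes of 0.17 ± 0.12 and -0.018 ± 0.13 in its 2 clusters. In the ERR list 6 of 12 clusters were higher and 0 passed. The 12 clusters covered 7 genes, and Cycs clusters with the same values on every array were counted separately among those higher. Cox5b had changes of -0.21 ± 0.16 in a dimmer cluster and 0.03 ± 0.08 in a brighter one, and Atp5b of 0.08 ± 0.08.

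**Figure D5:**
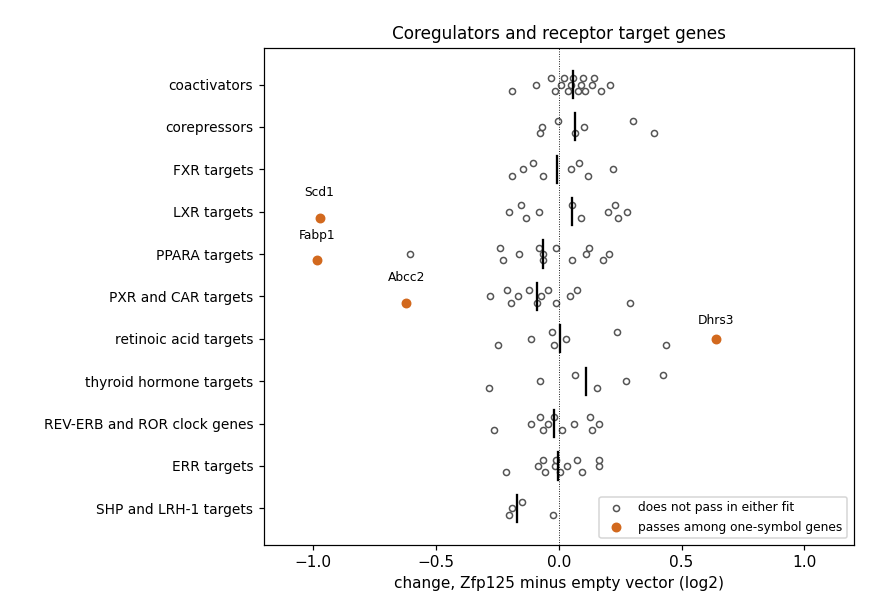
Change of each cluster of the 11 coregulator and target lists (log2, Zfp125 minus empty vector), with the list median as a vertical bar. Filled points are the 4 genes that passed among single-symbol genes, Scd1, Fabp1 and Abcc2 to the left and Dhrs3 to the right.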

How the data were processed

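The authors deposited log2 expression values for 41345 transcript clusters of an Affymetrix MoGene 2.0 ST array, a scale taken from the range of the values. Per the submitters' processing notes, the tools were Affymetrix Expression Console and Transcriptome Analysis Console. Versions, background correction and normalization: not given in the sources used here. Values were not normalized again. Clusters were named through the platform annotation (23521 with 1 symbol, 1814 with several, 16010 unnamed). For 23328 of those with 1 symbol, the Entrez identifier was found in RefSeq (GRCm38.p6). The RefSeq symbol was then used, whether or not it differed.

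R 4.3.3 with limma 3.58.1 gave the changes (linear model and empirical Bayes test, two-sided) over all clusters, with Benjamini-Hochberg adjustment and a threshold of 0.05. Single-symbol genes, each by its brightest cluster (22180), were an alternative. The fit was tested on simulated data with planted changes. Of changes of 0.5 log2 units 32.8% were recovered, of 1 unit 83.6% and of 2 units 93.9%, and 5 of 145 calls were false. Precision is limited by the number of arrays.

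The receptors and lists were chosen with earlier results of these data known. All receptors are named; values on every array are given for the 6 clusters with the smallest p, and in each list for the genes that passed and the 2 with the smallest p a change is given. Lcor, Dhrs3 and Nr0b2, shown on every array, meet the rule for the lists, which itself uses the p-values of these data. Genes shown on every array that meet neither rule were picked after their values were seen. Figures were drawn with matplotlib 3.10.9.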

Additional observations from a re-analysis of the deposited data

Results flagged for a closer look

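Of 134 groups of 4 arrays examined (receptor clusters and named list genes in each of the 2 groups), 6 (4.48%) held 1 array far from the others, by the gap to its nearest neighbour as a share of the group's range; chance gives about 1 in 20. In Zfp125 cells, replicate 1 was high for Rarg (5.75 against at most 5.54 on the others, a share of 0.836) and low for Nr4a2 (4.71 against at least 4.98, 0.875). Replicate 4 of Zfp125 cells was high for Nr1i2 (5.55 against at most 5.38, 0.891) and for the cluster of Tef with the smaller p (5.03 against at most 4.61, 0.906). In empty vector cells, replicate 2 was high for Vdr (5.82 against at most 5.63, 0.8293) and replicate 3 for Arntl (6.32 against at most 6.22, 0.849).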

How the results depend on the processing

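The count of receptor clusters called was 0 under each alternative run, and each of the 6 named receptor clusters kept its direction and stayed above the threshold in every setting that tested it. Rorb was not tested among clusters above the median, nor the dim Nr3c2 cluster there, above the 25th percentile or among single-symbol genes. Over the settings run, the change and adjusted p ranged from -0.46 to -0.34 and 0.0785 to 0.422 for Rora, 0.32 to 0.42 and 0.105 to 0.450 for Rorb, -0.51 to -0.36 and 0.0889 to 0.419 for Nr5a2, -0.25 to -0.16 and 0.385 to 0.684 for the dim Nr3c2 cluster, -0.27 to -0.17 and 0.318 to 0.706 for Vdr, and 0.17 to 0.32 and 0.374 to 0.767 for Nr2c1. As a single-symbol gene, Nr3c2 had a change of 0.09 by its brightest cluster (adjusted p = 0.808) and of -0.056 by the mean of its clusters (adjusted p = 0.874). The count over all clusters, 61, was 94 above the 25th percentile, 232 above the median, 196 with a trended robust prior, 4 without moderation, 240 and 227 for single-symbol genes by brightest cluster and by mean, 260 for all clusters with a symbol (an alternative chosen after seeing the data), and 16 to 61 on leaving out 1 array. The list count, 0, was 1 above the 25th percentile, 4 above the median, 3 with the trended prior, 4 in each of the 3 settings with named clusters, and 0 to 2 on leaving out 1 array. Same-numbered samples of the groups share only a number (correlations of their deviations -0.04 to 0.03); with the replicate number as a block the count over all clusters was 0, with 3530 at an unadjusted p under 0.05; limma called 0 receptor clusters there, and 3 had an unadjusted p under 0.05. The cause of these differences was not tested. The count of receptor clusters above the median, 34, was 16 above the 75th percentile and 34 on leaving out any empty vector array. The 4 arrays a group limit the precision, with a median half-width of 0.24 for the receptors' intervals.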
